A study of Macaca mulatta with 4 samples.

Results

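A set of 10 genes of microglia, the resident macrophages of the brain, was followed in the amygdala of infant rhesus macaques (Macaca mulatta) after repeated sevoflurane anaesthesia. They encode the 3 chains of complement C1q (C1QA, C1QB and C1QC), the activating receptor TREM2 with its adaptor TYROBP, the surface receptors CX3CR1, CSF1R and P2RY12, the membrane protein TMEM119, and PTPRC (CD45). The rule that chose the genes uses their symbols alone. Each symbol matched 1 of the 35395 Ensembl gene IDs in the deposited count table, and all 10 were among the 15417 IDs with enough reads to be tested. The 4 libraries came from wild-type amygdala. One female and one male were labelled control. The other female and male had inhaled 2.5 to 3% sevoflurane, a volatile anaesthetic, for 4 hours at about postnatal days 7, 21 and 35, with the tissue collected right after the last session. The sources used here do not say what gas the controls received. With 2 libraries per condition and no word in the labels on how animals were assigned, p-values measure only the spread between these libraries, which takes in any difference between female and male.

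Microglia survey the brain with motile processes and remove debris and synapses. C1q starts the classical complement cascade and tags synapses for removal, and microglia are its main source in brain. TREM2 senses lipids and lipoproteins and signals through TYROBP, which carries an ITAM motif read by the kinase SYK. CSF1R, bound by CSF1 and IL34, keeps microglia alive. CX3CR1 binds CX3CL1 from neurons, P2RY12 senses extracellular ADP, and TMEM119 is a marker of the resting state. PTPRC is a membrane phosphatase carried by nearly all leukocytes.

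Libraries held 12477047 to 16293371 reads on genes, and 1 read was worth 0.0633 to 0.0888 CPM (counts scaled to library size, with TMM factors). The 10 genes together took 6917 and 4606 reads in the female and male controls, and 2846 and 3533 reads in the female and male after sevoflurane. Across all tested genes, 40.7% were called between the conditions (edgeR quasi-likelihood test, Benjamini-Hochberg adjusted p below 0.05), 19.4% lower and 21.3% higher after sevoflurane. Genes picked as having short messages and genes picked as having very long ones changed in opposite directions. Of 28 short messenger RNAs tested (proteasome core and Sm-type proteins), 22 were called lower, with a median log2 fold change of −1.46, and of 39 very long ones, 35 were called higher, with a median of 2.65. The control male library stood apart in choroid plexus markers, which summed to 18103 CPM there against 10.2 to 34.8 CPM in the other 3 libraries. The neuronal gene SNAP25 was at 1542 to 2441 CPM in every library. Not every marker of the labelled tissue was present throughout. FOXP2, from the same list of brain and amygdala markers, had 1 and 0 reads in the female and male controls. It had 235 and 35 reads in the female and male after sevoflurane. Of the 16 markers of that list, 4 were called higher, 3 lower and 9 not called. Whether the libraries match in the part of the tissue sampled was not tested. Whether message length has a part in the changes below was not tested.

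Of the 10 genes, 6 were called lower after sevoflurane (C1QA, C1QB, C1QC, TYROBP, TREM2 and CSF1R), 1 was called higher (PTPRC), and 3 were not called (CX3CR1, P2RY12 and TMEM119). The 6 of 10 called lower stand beside 19.4% of all genes tested. The median log2 fold change of the 10 was −1.29 beside 0.0040 for all genes and −1.46 for the short messenger RNAs. In 7 genes both sevoflurane libraries lay below both controls, an arrangement that 37.3% of all tested genes showed, and in 1 both lay above, as in 37.7% of all. The change had the same sign in the female and the male pair for 8 of the 10, and opposite signs in the pairs were seen for 14.6% of all genes. In bulk tissue, fewer microglia and less RNA per microglial cell cannot be told apart, and the part of message length was not tested. Of the 7 calls, 4 (C1QA, C1QB, C1QC and TYROBP) held when any 1 library was left out.

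**Figure D1:**
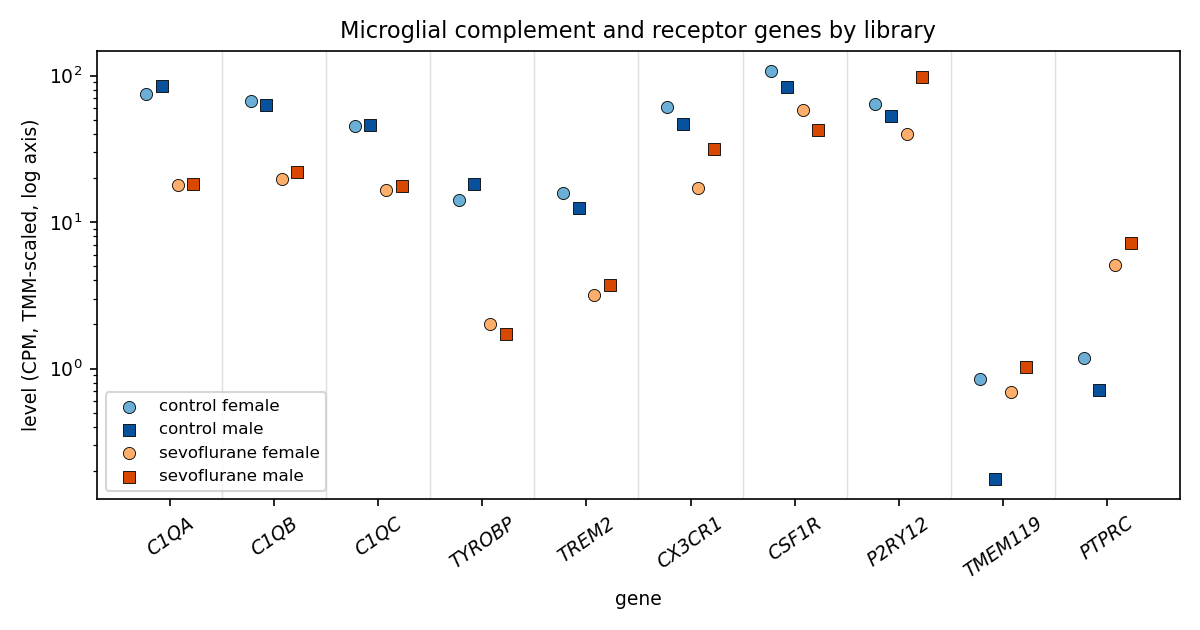
Level of each of the 10 genes (CPM with TMM scaling, log axis) in each of the 4 libraries; circles are females, squares are males, blue marks control and orange sevoflurane. C1q chains, TYROBP, TREM2, CX3CR1 and CSF1R are lower in both sevoflurane libraries, PTPRC is higher in both, and P2RY12 and TMEM119 overlap.

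The C1q chains fell together and by similar amounts in both sexes. C1QA (ENSMMUG00000063725), the A chain of the C1q subcomponent, stood at 75.0 and 85.1 CPM in the female and male controls, and at 17.9 and 18.3 CPM in the female and male after sevoflurane. The 2 sevoflurane values nearly coincided, and both lay far below either control. The mean went from 80.1 ± 7.13 to 18.1 ± 0.297 CPM (SD, n = 2 each), a log2 fold change of −2.15 ± 0.27 (SE; edgeR adjusted p = 0.00297).

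C1QB (ENSMMUG00000058486), the B chain, was at 66.7 and 62.7 CPM in the female and male controls and at 19.8 and 21.9 CPM in the female and male after sevoflurane. The groups did not overlap, and the log2 fold change was −1.63 ± 0.27 (edgeR adjusted p = 0.00605). C1QC (ENSMMUG00000020756), the C chain, was at 45.2 and 46.0 CPM in the controls and 16.5 and 17.6 CPM after sevoflurane, again with no overlap (−1.42 ± 0.28, edgeR adjusted p = 0.0107). The 3 genes are direct neighbours on 1 chromosome, in the order C1QB, C1QC, C1QA, in the RefSeq annotation of the assembly T2T-MMU8v2.0, which is not known to be the build of the deposited counts. Leaving out any 1 library moved the log2 fold change only from −2.22 to −2.07 for C1QA, from −1.71 to −1.56 for C1QB and from −1.46 to −1.37 for C1QC.

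The shares of C1QA and C1QC in the C1q reads differed between the conditions by more than counting error. Such a share does not depend on the scaling between libraries. C1QA gave 40.1% of all C1q reads in the control female (95% Clopper-Pearson interval 38.3 to 42.0%) and 43.9% (41.8 to 46.0%) in the control male. After sevoflurane it gave 32.9% (29.8 to 36.2%) in the female and 31.6% (28.5 to 34.9%) in the male. The share of C1QC moved the other way, from 24.2% (22.6 to 25.8%) and 23.7% (21.97 to 25.6%) in the control female and male to 30.5% (27.4 to 33.7%) and 30.4% (27.3 to 33.7%) after sevoflurane. For both chains the intervals of the control and sevoflurane libraries were apart. The share of C1QB lay between 32.4% and 37.9% in the 4 libraries. Its intervals overlapped in the female pair (control 33.9 to 37.5%, sevoflurane 33.3 to 39.9%). In the male pair they were narrowly apart (control 30.4 to 34.4%, sevoflurane 34.6 to 41.3%). Reads were not scaled for transcript length, so these are shares of reads and not of transcripts, and the intervals cover counting error only. No p is given, since an exact two-sided permutation test of 2 libraries against 2 cannot go below 0.333.

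**Figure D2:**
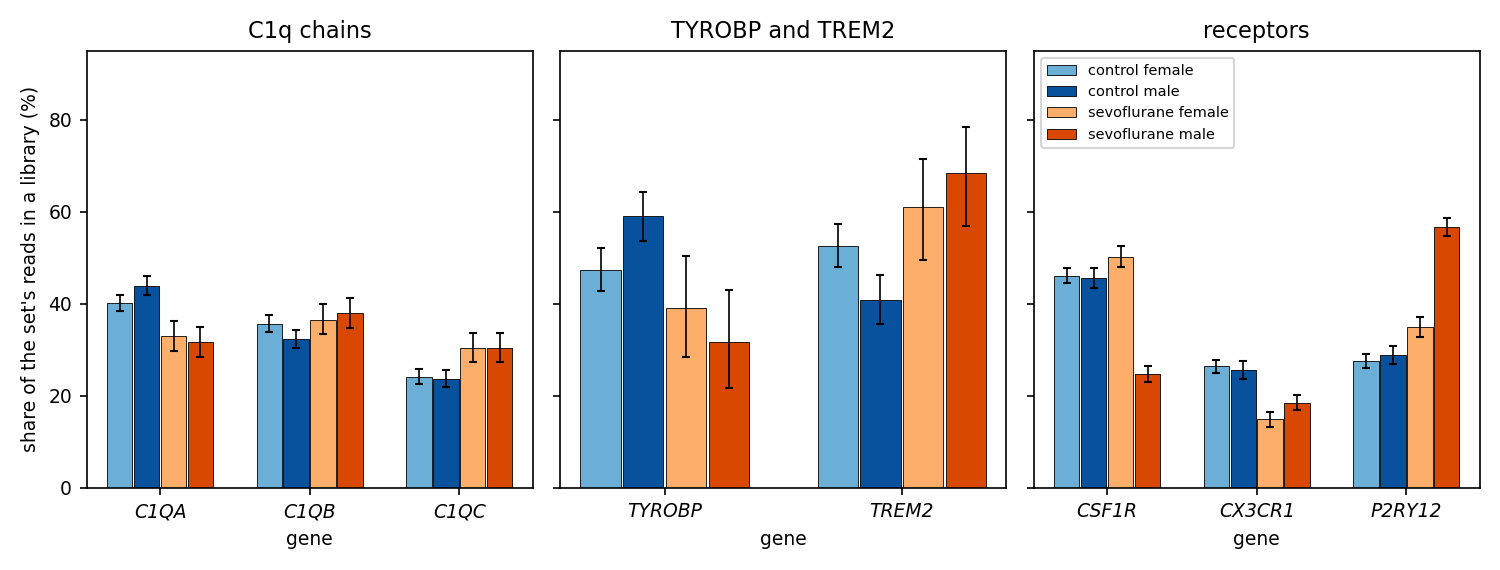
Share of reads (percent, with 95% Clopper-Pearson intervals for counting error) held by each C1q chain, by TYROBP and TREM2, and by the receptors CSF1R, CX3CR1 and P2RY12, each within its own set and library. The share of C1QA is lower and that of C1QC higher in both sevoflurane libraries, and P2RY12 takes 56.8% of the receptor reads in the sevoflurane male library.

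TYROBP and TREM2, the adaptor and its receptor, also fell. TYROBP (ENSMMUG00000008004) had the greatest drop of the 10 genes, from 14.2 and 18.1 CPM in the female and male controls to 2.03 and 1.72 CPM in the female and male after sevoflurane. Behind these levels were 217, 204, 32 and 25 reads, and the groups were widely separated. The log2 fold change was −3.10 ± 0.45 (edgeR adjusted p = 0.00424), lower in both sexes. Within the female pair the control level was 6.99 times the sevoflurane level (95% counting interval 4.81 to 10.5), and within the male pair 10.6 times (6.95 to 16.7).

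TREM2 (ENSMMUG00000013920) was at 15.7 and 12.5 CPM in the female and male controls and at 3.16 and 3.71 CPM in the female and male after sevoflurane, with no overlap. Its log2 fold change was −2.04 ± 0.43 (edgeR adjusted p = 0.0129). That call was lost without the sevoflurane female (edgeR adjusted p = 0.0584) or the sevoflurane male library (0.0554), where the log2 fold changes were −1.93 and −2.16. TYROBP gave 47.4% (42.7 to 52.1%) and 59.1% (53.7 to 64.4%) of the reads of this pair in the control female and male, and 39.0% (28.4 to 50.4%) and 31.6% (21.6 to 43.1%) in the female and male after sevoflurane. In females the intervals overlapped, so a shift in the balance of adaptor and receptor was not detectable there at this depth. In males they were apart, but the intervals of the female and male controls were apart from each other too. These intervals cover counting error only, so whether the difference in the male pair goes with sevoflurane was not tested.

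Among the surface receptors the change was smaller and less even. CSF1R (ENSMMUG00000011556), the growth factor receptor on which microglia depend, was at 107 and 83.7 CPM in the female and male controls and at 57.7 and 42.4 CPM in the female and male after sevoflurane. The groups did not overlap, and the log2 fold change of −0.93 ± 0.29 just passed the test (edgeR adjusted p = 0.0434). The call was lost with library totals in place of TMM (edgeR adjusted p = 0.109), with upper-quartile scaling (0.0557), and without the control female (0.201), the control male (0.0607) or the sevoflurane male library (0.154).

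CX3CR1 (ENSMMUG00000065286), the fractalkine receptor, was at 61.3 and 47.0 CPM in the female and male controls, and at 17.1 and 31.7 CPM in the female and male after sevoflurane. Both sevoflurane values were below both controls, with the male value closer to the controls than the female one. The log2 fold change of −1.15 ± 0.38 (95% interval −2.07 to −0.23) missed the threshold (edgeR adjusted p = 0.0522). Over the alternative settings its adjusted p ran from 0.0096 to 0.145, and it was called lower with DESeq2 (adjusted p = 0.0224) and in the edgeR fit with sex as a term (adjusted p = 0.0113). In females the control level was 3.59 times the sevoflurane level (95% counting interval 3.13 to 4.12) and in males 1.48 times (1.31 to 1.69).

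P2RY12 (ENSMMUG00000001105), the ADP receptor of microglial processes, did not follow the other receptors. It was at 63.9 and 53.1 CPM in the female and male controls, and at 40.1 and 97.2 CPM in the female and male after sevoflurane. The 2 sevoflurane libraries thus lay on either side of both controls. The log2 fold change was 0.23 ± 0.43 (95% interval −0.81 to 1.27, edgeR adjusted p = 0.695), and −0.54 without the sevoflurane male library (edgeR adjusted p = 0.245). Within the female pair the sevoflurane level was 0.628 times the control level (95% counting interval 0.567 to 0.694), and within the male pair 1.83 times (1.66 to 2.02). With 1 library per sex and condition, the difference between the sexes has no test.

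The ratio of reads within a library needs no scaling between libraries. For each CSF1R read there were 0.596 and 0.635 P2RY12 reads in the female and male controls, and 0.695 and 2.29 in the female and male after sevoflurane. The sevoflurane male library thus stood apart from the other 3. For each CSF1R read there were 1.74 and 2.32 C1q reads in the control female and male and 0.939 and 1.36 in the female and male after sevoflurane, so both C1q ratios after sevoflurane were below both control ratios.

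**Figure D3:**
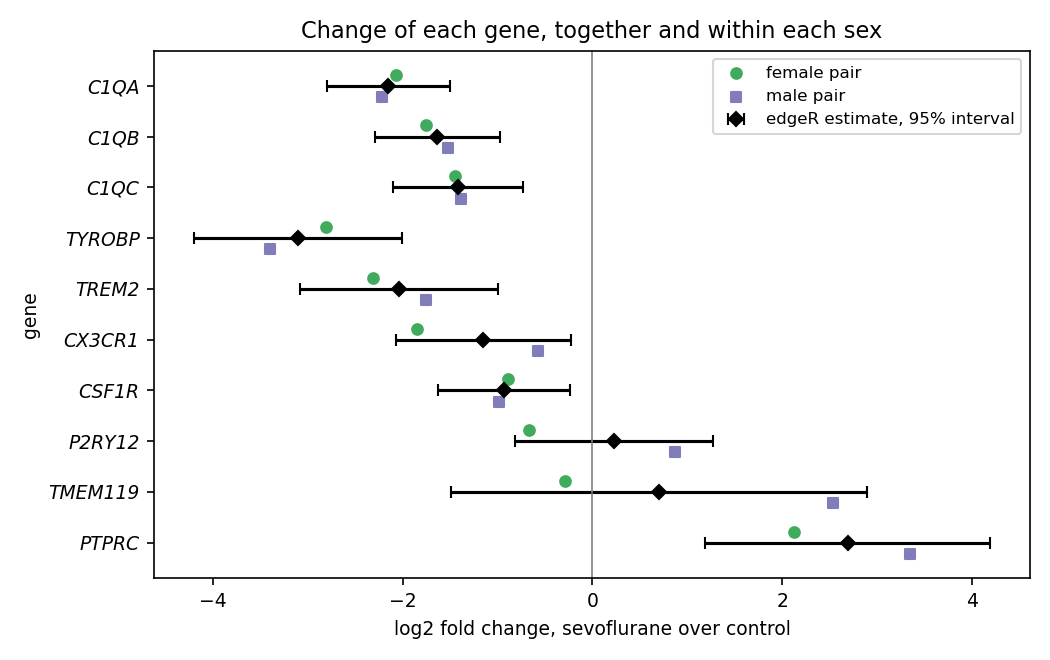
Log2 fold change of sevoflurane over control for each gene: black diamonds with bars are the edgeR estimate and its 95% interval over all 4 libraries, green circles the female pair and purple squares the male pair. The intervals of P2RY12 and TMEM119 span 0, their female and male points fall on opposite sides of it, and PTPRC alone lies wholly above 0.

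P2RY12 overlaps another gene, which bears on how its reads could be assigned. In the RefSeq annotation of T2T-MMU8v2.0, it was the only one of the 10 whose span overlaps another protein-coding gene. That gene is MED12L, a subunit of the Mediator kinase module. MED12L rose from 1.5 and 1.87 CPM in the control female and male to 19.2 and 14.4 CPM in the female and male after sevoflurane (log2 fold change 3.32 ± 0.47, edgeR adjusted p = 0.00380). P2RY13, a related ADP receptor of microglia, overlaps MED12L too, and was at 2.94 and 2.04 CPM in the controls and 4.37 and 6.11 CPM in the female and male after sevoflurane (1.07 ± 0.56, edgeR adjusted p = 0.169).

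A similar arrangement holds for GPR34, a microglial lysophospholipid receptor whose span overlaps CASK, a synaptic scaffold gene. GPR34 was at 21.3 and 16.3 CPM in the control female and male and 19.7 and 28.2 CPM in the female and male after sevoflurane (0.35 ± 0.35, edgeR adjusted p = 0.454). CASK rose by 3.26 ± 0.45 on the log2 scale (edgeR adjusted p = 0.00362). These overlapping genes were looked up after their receptors' values had been seen. The sources used here do not say whether counting kept strand, so reads of overlapping genes cannot be told apart, and the part of MED12L or CASK transcripts in the receptor counts was not tested.

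**Figure D4:**
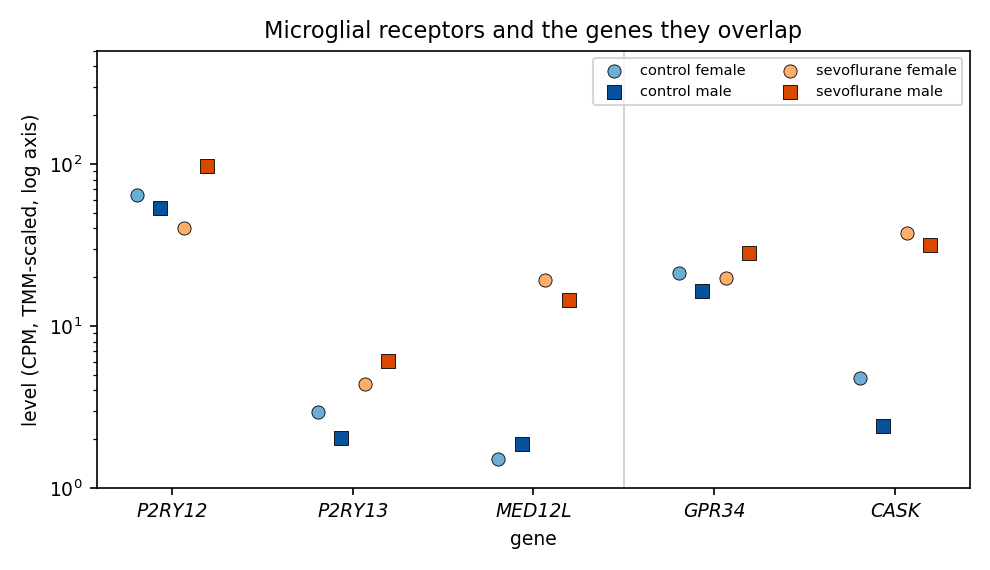
Levels (CPM with TMM scaling, log axis) of P2RY12, P2RY13 and the gene they overlap, MED12L, and of GPR34 and the gene it overlaps, CASK, in each of the 4 libraries. MED12L and CASK are higher in both sevoflurane libraries, while P2RY12 and GPR34 are highest in the sevoflurane male library.

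TMEM119 (ENSMMUG00000050754) was close to absent from the counts. It had 13 and 2 reads in the female and male controls, and 11 and 15 in the female and male after sevoflurane, or 0.178 to 1.03 CPM. The libraries of the 2 conditions overlapped (log2 fold change 0.70 ± 0.91, 95% interval −1.49 to 2.89, edgeR adjusted p = 0.566), and a change of up to several-fold in either direction was not detectable at this depth. These reads are few for a microglial marker, and how completely the annotation behind the counts models the gene was not tested. Its neighbour SELPLG, also a microglial gene, was at 60.4 and 57.8 CPM in the control female and male and 28.7 and 31.5 CPM after sevoflurane, and was called lower (−0.97 ± 0.26, edgeR adjusted p = 0.0284).

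PTPRC (ENSMMUG00000000009) was the one gene of the 10 that rose. Its reads numbered 18 and 8 in the female and male controls, against 81 and 105 in the female and male after sevoflurane. The levels were 1.17 and 0.711 CPM in the controls and 5.13 and 7.21 CPM after sevoflurane, with no overlap. The log2 fold change was 2.69 ± 0.62 (edgeR adjusted p = 0.0169), and the call was lost without the sevoflurane male library (2.42, edgeR adjusted p = 0.0938). The sevoflurane level was 4.37 times the control level in females (95% counting interval 2.60 to 7.73) and 10.1 times in males (4.97 to 24.1).

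Because PTPRC is shared by leukocytes, markers of other blood and border cells were read beside it. The 13 markers of T and NK cells summed to 24.9 and 17.2 CPM in the control female and male and to 22.2 and 20.7 CPM in the female and male after sevoflurane, and 0 of the 4 tested were called. Most of this sum was CD4, which macrophages carry too, at 18.9 and 9.59 CPM in the female and male controls and 14.2 and 8.59 CPM after sevoflurane. CD247 (0.391 and 0.355 to 1.46 and 0.687 CPM) and CD8A (1.89 and 1.78 to 2.66 and 4.05 CPM) lay above both controls in both sevoflurane libraries, with log2 fold changes of 1.5 ± 0.80 and 0.87 ± 0.60 (edgeR adjusted p = 0.176 and 0.284). CD3G had 0 reads in every library and CD3D had 2 reads, both in the control female, while CD3E was at 2.61 and 4.80 CPM in the controls and 3.48 and 6.94 CPM after sevoflurane. The 6 B cell markers summed to 0.316 to 1.07 CPM in the 4 libraries, and none was tested. The 8 neutrophil and monocyte markers summed to 9.85 and 12.8 CPM in the controls and to 6.77 and 7.49 CPM after sevoflurane, and 0 of the 3 tested were called. Most of that sum was LYZ, at 7.44 and 9.50 CPM in the female and male controls and 4.43 and 4.53 CPM after sevoflurane. S100A9 lay the other way, at 0.326 and 0.0888 CPM in the controls and 1.27 and 0.893 CPM after sevoflurane (2.27 ± 0.90, edgeR adjusted p = 0.0849). For PTPRC itself the sevoflurane levels were 4.37 and 10.1 times the control levels, and the part of blood cells in its rise was not tested.

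Macrophages of the brain's borders share many genes with microglia. The 8 markers of these cells summed to 194 and 162 CPM in the control female and male and to 106 and 113 CPM in the female and male after sevoflurane. Of the 7 tested, 1 was called lower, beside 19.4% of all genes. It was the scavenger receptor STAB1 (−1.37 ± 0.31, edgeR adjusted p = 0.0166), whose call was lost without the sevoflurane male library. MRC1, the mannose receptor, was at 9.85 and 9.68 CPM in the controls and 12.9 and 18.6 CPM after sevoflurane, and CD163, a haemoglobin scavenger receptor, at 10.2 and 10.9 CPM and at 17.3 and 27.0 CPM. Both genes lay above both controls after sevoflurane, and neither was called (edgeR adjusted p = 0.190 and 0.0621). MS4A7 (−1.19 ± 0.40, edgeR adjusted p = 0.0545) and SIGLEC1 (−1.08 ± 0.58, 0.178) lay below both controls and were not called. Of the 7 tested, 3 lay above both controls and 3 below. With library totals or no filter 1 was called higher and 1 lower, and with DESeq2 or sex as a term 1 higher and 2 lower. The part of these cells in the changes of the 10 genes was not tested.

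Other microglial genes were called lower or not called. Of 27 tested, 7 were called lower and 0 higher, with a median log2 fold change of −0.55, beside 19.4% lower and 21.3% higher of all genes. Both sevoflurane libraries lay below both controls in 13 and above both in 4, beside 37.3% and 37.7% of all genes. The median was −0.077 when the sevoflurane female was left out and −0.23 when the control male was. AIF1, which encodes the microglial protein IBA1, went from 45.3 and 43.6 CPM in the control female and male to 7.72 and 9.20 CPM in the female and male after sevoflurane, with no overlap (−2.39 ± 0.31, edgeR adjusted p = 0.00321). SPI1, the lineage transcription factor PU.1, went from 13.3 and 12.8 CPM to 2.53 and 1.58 CPM (−2.66 ± 0.49, edgeR adjusted p = 0.00829). Its span overlaps SLC39A13, a zinc transporter gene, which was called lower too (41.3 and 52.5 to 19.5 and 14.4 CPM), and the part of that gene's reads was not tested. CD74, the invariant chain of MHC class II, stood at 20.7 and 94.1 CPM in the female and male controls, and at 7.53 and 2.75 CPM in the female and male after sevoflurane. Its log2 fold change of −3.47 ± 0.83 became −2.03 when the control male was left out and −4.38 when the control female was, and its call was lost without the sevoflurane male (edgeR adjusted p = 0.0997). Without the sevoflurane male library 3 genes of this list were called lower.

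**Figure D5:**
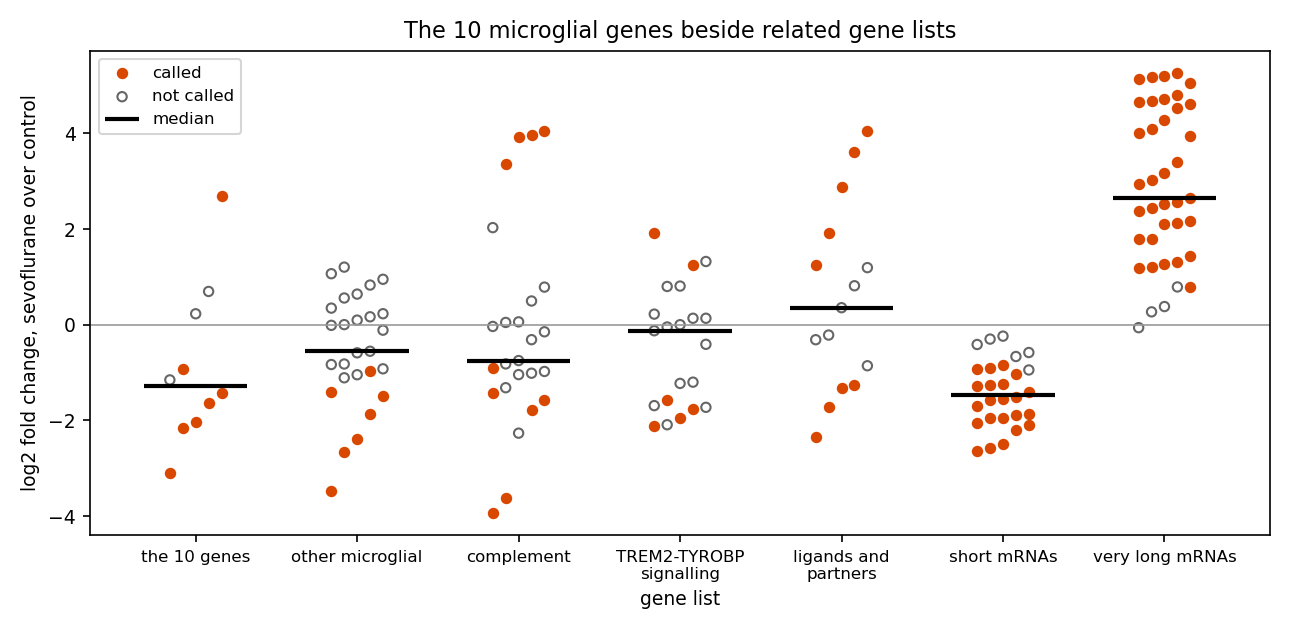
Log2 fold change of sevoflurane over control for every tested gene of 7 lists; filled orange points were called by edgeR, open points were not, and the black line is the median of the list. The median of the 10 genes, −1.29, lies near that of the short messenger RNAs, −1.46, and far from that of the very long ones, 2.65. The part of message length in these changes was not tested.

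The rest of the complement cascade and its regulators moved in both directions. Of 25 tested cascade and regulator genes, 6 were called lower and 4 higher, so 10 of 25 were called beside 40.7% of all genes. Those called lower were C3, C7, CFB, CFD, CD59 and CLU, and those called higher were C6, CSMD1, CSMD2 and CSMD3. The median was −0.75, and −0.24 when the control female was left out. The proteases that bind C1q, C1R and C1S, were not called with condition alone. C1R was at 59.8 and 32.5 CPM in the female and male controls and at 16.9 and 2.27 CPM in the female and male after sevoflurane (−2.26 ± 0.86, edgeR adjusted p = 0.0758), and C1S at 20.1 and 6.31 CPM and at 9.37 and 1.24 CPM (−1.32 ± 0.96, edgeR adjusted p = 0.309), where the groups overlapped. The C1R value was −4.34 without the sevoflurane female and −1.45 without the sevoflurane male library. For C1S, leaving out 1 library gave −0.24 (control female), −1.94 (control male), −3.41 (sevoflurane female) and −0.50 (sevoflurane male). With sex as a term, both were called lower by edgeR (C1R −2.75, adjusted p = 0.000155, and C1S −1.65, adjusted p = 0.0114), and DESeq2 called C1R (adjusted p = 0.00929).

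C3, the central component on which all complement pathways converge, fell from 111 and 97.4 CPM in the control female and male to 66.1 and 44.6 CPM in the female and male after sevoflurane (−0.91 ± 0.29, edgeR adjusted p = 0.0477). That call was lost without the control female (0.161), the control male (0.0868) or the sevoflurane male library (0.157), and with library totals (0.119) or upper-quartile scaling (0.0612). CFD, the alternative pathway protease factor D, fell from 24.3 and 31.7 CPM to 2.34 and 1.30 CPM (−3.93 ± 0.47, edgeR adjusted p = 0.00262). The genes of largest rise were CSMD3 (4.05 ± 0.41, edgeR adjusted p = 0.00197) and CSMD2 (3.97 ± 0.76, edgeR adjusted p = 0.00914), which encode very large membrane proteins with complement-control domains, and CSMD2 was at 5.51 when the control female was left out and 3.25 when the control male was. CSMD1, outside the naming rule and named after its values were seen, also rose (3.92 ± 0.47, edgeR adjusted p = 0.00269). Without the sevoflurane male library 3 genes of this list were called lower.

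The receptors that read complement fragments were mostly not called. ITGAM and ITGB2 form complement receptor 3, by which microglia engulf C3-tagged synapses. ITGAM was at 5.28 and 4.62 CPM in the female and male controls and at 4.75 and 5.08 CPM in the female and male after sevoflurane (−0.01 ± 0.49, 95% interval −1.19 to 1.17). ITGB2 was at 14.7 and 11.3 CPM and at 5.76 and 3.98 CPM (−1.41 ± 0.45, edgeR adjusted p = 0.0453), but its call was lost without any 1 of the 4 libraries (adjusted p 0.0506 to 0.173) and with library totals or upper-quartile scaling. ITGAM overlaps TRIM72 (402 and 418 to 233 and 183 CPM) and ITGB2 overlaps SLX9 (84.2 and 128 to 41.97 and 24.8 CPM), both called lower, and the part of their reads in these counts was not tested. The C3a receptor C3AR1 was at 5.94, 3.38, 2.53 and 5.91 CPM in the control female, control male, sevoflurane female and sevoflurane male, and the C5a receptor C5AR1 at 13.6, 14.6, 5.19 and 8.79 CPM. Neither was called (−0.15 ± 0.64 and −1.01 ± 0.44).

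Of 21 tested genes around TREM2-TYROBP signalling, 4 were called lower and 2 higher, beside 19.4% and 21.3% of all genes. Their median was −0.12, and it was 0.12 with library totals, −0.57, −0.39, −0.35 and −0.59 without the control female, control male, sevoflurane female and sevoflurane male in turn. SYK, the kinase recruited to TYROBP, was at 5.35 and 4.26 CPM in the female and male controls and at 1.39 and 1.58 CPM in the female and male after sevoflurane, with no overlap (−1.69 ± 0.57, edgeR adjusted p = 0.0556). PLCG2, the phospholipase downstream of SYK, was at 11.1, 6.57, 10.2 and 6.94 CPM in the same order of libraries (−0.05 ± 0.48). APOE, a lipoprotein ligand of TREM2 made mainly by astrocytes, fell from 2036 and 2309 CPM to 808 and 471 CPM (−1.76 ± 0.35, edgeR adjusted p = 0.0104). HCST, the adaptor DAP10 and the neighbour of TYROBP on the chromosome, was called lower (−2.11 ± 0.63, edgeR adjusted p = 0.0385), as was the tetraspanin CD9 (−1.95 ± 0.51, 0.0245). Both calls were lost without the control male (0.0806 and 0.0924), the sevoflurane female (0.0701 and 0.0757) or the sevoflurane male library (0.171 and 0.1247), and CD9 was at −1.02 without the control male. ADAM17, a protease that sheds TREM2 from the membrane, rose from 11.4 and 11.9 CPM to 39.4 and 48.3 CPM (1.91 ± 0.31, edgeR adjusted p = 0.00545). Without the sevoflurane male library 1 gene of this list was called lower and 1 higher.

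The ligands and partners of the receptors split between the directions. Of 15 tested ligands and partners, 4 were called lower and 5 higher, beside 19.4% and 21.3% of all genes. Their median was 0.36, and it was 0.58 with library totals and 0.023 when the sevoflurane male was left out. Both ligands of CSF1R fell: CSF1 from 10.7 and 18.1 CPM in the control female and male to 5.25 and 3.50 CPM in the female and male after sevoflurane (−1.71 ± 0.49, edgeR adjusted p = 0.0329), and IL34, the neuronal ligand, from 137 and 91.5 CPM to 60.3 and 34.96 CPM (−1.26 ± 0.37, edgeR adjusted p = 0.0349). Both calls were lost with library totals (0.0522 and 0.0724) and without the sevoflurane male library (0.141 and 0.129). CSF1 also lost its call without the control male (0.126) or the sevoflurane female (0.0679), and IL34 without the control female (0.119).

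CX3CL1, the neuronal ligand of CX3CR1, was at 1005 and 708 CPM in the female and male controls and at 600 and 346 CPM in the female and male after sevoflurane. The groups did not overlap, and it was not called (−0.86 ± 0.36, edgeR adjusted p = 0.101). The 3 genes of largest change in this list all rose. They were TGFB2, a TGF-beta ligand (4.04 ± 0.57, edgeR adjusted p = 0.00388), NT5E, the ectonucleotidase CD73 that turns AMP into adenosine (3.62 ± 0.67, 0.00835), and SMAD3, a transducer of TGF-beta signals (2.87 ± 0.37, 0.00317). TGFB1, named after its values were seen, fell from 38.2 and 24.9 CPM in the female and male controls to 7.03 and 5.43 CPM after sevoflurane (−2.34 ± 0.39, edgeR adjusted p = 0.00601). TGFB2 was below TGFB1 in both controls, at 0.979 and 0.533 CPM. In both sevoflurane libraries it was above TGFB1, at 11.3 and 14.3 CPM. Reads were not scaled for transcript length, so this order is one of reads and not of transcripts. NT5E was at 5.01 when the control female was left out and 2.94 when the control male was. The count of this list called lower was 2 without the control female, 1 without the sevoflurane male and 2 with library totals.

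The 5 genes outside the 10 that tracked the C1q chains most closely over the 4 libraries, by the distance between centred log2 CPM profiles, were SAT2, GCAT, COMMD5, FABP3 and CINP, at distances of 0.0504, 0.0520, 0.0847, 0.0874 and 0.0935 log2 units from the mean C1q profile. FABP3, a fatty acid binding protein, was at 345 and 340 CPM in the control female and male and 100.3 CPM in either sevoflurane library. Of the chains themselves, C1QB lay at a distance of 0.139, with 16 genes with a symbol closer than it. C1QC lay at 0.313 with 203 closer and C1QA at 0.425 with 463 closer, beside TREM2 at 0.381 with 350 closer. The mean profile is made from the C1q chains, so each chain is part of what it is compared with. P2RY12 lay at 2.02 with 7165 genes closer, and PTPRC at 4.32 with 12194 closer. With 4 libraries such likeness is a description, since 37.3% of all tested genes had both sevoflurane values below both controls.

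Between the sexes, with condition held as a term, 1.84% of tested genes were called (283, edgeR adjusted p below 0.05) and 0 of the 10. At an unadjusted p below 0.05 the count was also 0 of 10, in a fit with 1 residual degree of freedom. The log2 differences of male over female ran from −0.55 ± 0.99 for TMEM119 to 0.51 ± 0.36 for P2RY12, and were 0.11 ± 0.30 for C1QA, 0.03 ± 0.31 for C1QB and 0.06 ± 0.33 for C1QC.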

How the data were processed

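RNA from 4 amygdala libraries, 2 per condition, was counted per gene. The authors deposited raw read counts, not normalized, 1 column per library. Reads were aligned with HISAT2, per the submitters' processing notes. The sources used here do not give the HISAT2 version, how reads were counted (program, strand) or the build. Of 35395 IDs, 24173 had a symbol in the reference name table. The members and lists were chosen with earlier results of these data known, and the list of very long messenger RNAs was written after the members' counts had been seen.

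Counts were filtered with edgeR's filterByExpr (minimum count 10), scaled with TMM and tested with edgeR 4.0.16 in R 4.3.3, by the quasi-likelihood test, fitting condition alone (2 residual degrees of freedom), and for sex with condition and sex (1). The p-values were adjusted over all 15417 genes. The script was tested on simulated data. Changes are relative to TMM: the median log2 fold change of all genes was 0.0040, and 0.24 with library totals. Levels are TMM-scaled CPM, and standard errors come from the F statistic. Counting intervals are exact binomial at 95%. Fractalkine and CSF1R ligands, early complement proteins and receptors, SYK, PLCG2 and APOE were named whatever their values, with up to 3 called genes of largest change, the same sign in both sexes, from each list. For the short and very long messenger RNAs counts and medians are given in their place. Alternatives were RLE, upper-quartile and no scaling, DESeq2 1.42.0, other filters, sex as a term, and leaving out each library.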

Additional observations from a re-analysis of the deposited data

Results flagged for a closer look

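Among the genes named, 7 had values that moved in opposite directions in the female and the male pair, a difference that was not tested, since each sex has 1 library per condition. For P2RY12 the log2 fold change was −0.67 in females and 0.87 in males, a difference of 1.54. For TMEM119 it was −0.28 and 2.54, a difference of 2.82 that rests on 2 reads in the control male library. For C3AR1 it was −1.23 and 0.81, a difference of 2.04. ITGAM and PLCG2 differed by 0.29 and 0.20 between the sexes, with changes near 0 in both. GPR34 (−0.11 in females and 0.79 in males) and SNAP25 (−0.043 and 0.66) differed by 0.90 and 0.71. Opposite signs were seen for 14.6% of all tested genes.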

How the results depend on the processing

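Of the 10 genes, 9 kept the sign of their change under every alternative, and P2RY12 ran from −0.54 (without the sevoflurane male library) to 0.73 when 1 library was left out. C1QA, C1QB, C1QC and TYROBP kept their calls under all alternatives. Between 5 and 7 of the 10 were called without any 1 library, with 5 or 6 lower and 0 or 1 higher. The number of all genes called ran from 3404 (without the sevoflurane male) to 5728 without any 1 library, against 6278, and with library totals 63.3% of calls were higher against 52.3% with TMM. Between the sexes 603 genes were called with no filter and 0 with sex as the only term (168 at an unadjusted p below 0.05), against 283. Signs also turned for C3AR1 (0.070 with library totals, −0.88 to 0.34 without any 1 library), ITGAM (0.22 with library totals, 0.056 with upper-quartile scaling, 0.0053 with no filter, −0.12 to 0.10 without any 1 library) and PLCG2 (0.18 with library totals, 0.021 with upper-quartile scaling, −0.39 to 0.39 without any 1 library), none of them called. The cause was not tested. The labels give no replicate numbers. With sex as a term, which works as a replicate block, 7825 genes were called and 8 of the 10, with 7 lower and 1 higher, CX3CR1 being added (edgeR adjusted p = 0.0113, over alternatives 0.0096 to 0.145). A share of C1q reads per protein length, planned as an alternative, was not run. Depth limits TMEM119 and PTPRC, which had 2 to 18 control reads.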

Other observations

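Genes of the other brain cells, read with the same test, moved in both directions. Of 16 tested markers of brain and amygdala, 4 were called higher, 3 lower and 9 not called, beside 21.3% higher and 19.4% lower of all genes. SYT1, the calcium sensor of synaptic vesicles, was at 36.2 and 7.37 CPM in the female and male controls and at 841 and 815 CPM after sevoflurane (log2 fold change 5.24 ± 0.77, edgeR adjusted p = 0.00422). This change was 6.82 when the control female was left out and 4.50 when the control male was. SNAP25, a partner in vesicle release, was at 2020 and 1542 CPM and at 1961 and 2441 CPM and was not called. FOXP2, a transcription factor of amygdala intercalated cells among others, had at most 1 read in a control library and was at 14.9 and 2.40 CPM in the female and male after sevoflurane. CYP26B1, which degrades retinoic acid, rose by 3.49 ± 0.68 on the log2 scale (edgeR adjusted p = 0.00962), and by 2.40 without the sevoflurane male library. GFAP, the intermediate filament of astrocytes, named after its values were seen, fell from 2317 and 2337 CPM to 253.8 and 552 CPM (−2.53 ± 0.43, edgeR adjusted p = 0.00623). Also called lower, and also named after their values were seen, were the neuronal gene RBFOX3 (−1.04 ± 0.32, edgeR adjusted p = 0.0415) and PPP1R1B (−2.95 ± 0.83, 0.0321). PPP1R1B was at 196 and 1336 CPM in the female and male controls and at 82.5 and 115 CPM after sevoflurane.

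Beside 19.4% of all genes, 2 of 4 tested red blood cell genes were called lower. They were HBQ1, a globin that stood at 2.35 and 27.0 CPM in the female and male controls, and HBA (−3.02 ± 0.69, edgeR adjusted p = 0.0161), whose reads may be split with near-identical globin copies. HBQ1 lost its call without either sevoflurane library (edgeR adjusted p = 0.0755 and 0.0796), and HBA without the sevoflurane male (0.0759). Of 7 tested choroid plexus genes 2 were called lower, the channel KCNJ13 and the transporter SLC22A8, beside 19.4% of all genes. SLC22A8 was at 21.1 and 88.6 CPM in the female and male controls and at 0.190 and 0.275 CPM after sevoflurane. KCNJ13 had 32.3 CPM in the control male, 0.979 CPM in the control female and no read after sevoflurane, and its call was lost without the sevoflurane female (edgeR adjusted p = 0.0867) or male library (0.100). These values are given with no explanation.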
